A study of Mus musculus with 9 samples.

Results

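The comparison described here is that of the Kif2a knockout line KO1 with unedited cells, in mouse embryonic stem (ES) cells. It rests on the 3 KO1 libraries and the 3 wild-type (WT) libraries of a table of 9, and on 10238 of 15526 genes, those whose values averaged 10 or more across the table. The gene just inside that limit, 2410003I16Rik, had a mean of 10.01, and the gene just outside, Necab1, had 9.997. The study asked, by its design text, how poly-A RNA differs between unedited ES cells and 2 separately edited lines that lack Kif2a.

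KO1 carries a Kif2a knockout, KO2 is a second, independently edited Kif2a knockout, and WT is unedited. All 9 libraries are labelled as ES cells of type 129, without treatment. Each knockout line is 1 edited line, so an effect of the knockout and a property of that line cannot be told apart within KO1. The labels do not tell whether libraries of a group came from separate cultures, so the p-values reflect the variation among these libraries alone, which may be technical. Levels are normalised read counts, as the authors scaled them. Changes are log2 fold changes of the value plus 1, with their standard error (SE), from limma over all 9 libraries. A gene is called where its p, adjusted by Benjamini and Hochberg's method over the 10238 genes, is under 0.05. A gene is called KO1-specific when it is called in KO1 against WT and, with the same sign, in KO1 against KO2; both contrasts use the KO1 libraries and are not independent.

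Kif2a encodes a kinesin-13, a motor family that does not walk along microtubules but removes tubulin from their ends. It acts in spindle assembly and in the pruning of neuronal processes. Mouse ES cells divide rapidly, are often derived from male embryos, and in culture can differ between clones in the chromosomes and imprinted marks they carry.

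Each library held 14960295 to 18814858 reads. In a principal component analysis KO1 (−1.06 to −2.52) lay between WT (−5.57 to −10.99) and KO2 (9.525 to 10.66) on component 1 (36.3% of the variance). On component 2 (15.4%) KO1 (5.02 to 7.94) lay away from KO2 (−1.85 to −3.68) and WT (−3.25 to −5.46). The 12 ES cell markers summed to 15108 to 15313 in KO1, 15419 to 15971 in KO2 and 14425 to 14935 in WT, ranges that did not overlap. The largest differences between KO1 and WT means in this sum were those of Dppa5a (3059 and 2765) and Tfcp2l1 (2546 and 2338). Zfp42, for example, was lower in KO1 (1270 and 1330). Of the 12, 7 had a change above 0 in KO1 against WT, beside 60.2% of all genes. Dppa5a, a gene of pluripotent cells, was the only one called (0.15 ± 0.04, limma adjusted p = 0.016). That call was lost without KO1 replicate 1 (0.14), KO1 replicate 2 (0.15), KO1 replicate 3 (0.15) or WT replicate 2 (0.12), and under quantile normalization (0.10). The pluripotency factors had no call: Pou5f1 was at 2263, 2349 and 2339 in KO1 and 2437, 2249 and 2401 in WT, Nanog averaged 1692 ± 43.8 in KO1 and 1686 ± 27.1 in WT, and Sox2 352 ± 30.7 in KO1 and 368 ± 40.3 in WT (SD, n = 3 each). Summed fibroblast markers (6201 to 6306 in KO1, 5713 to 6328 in WT), trophoblast markers (92.6 to 101 and 79.4 to 94.9) and early germ layer markers (95.1 to 103 and 92.8 to 101) overlapped between the groups. The fibroblast sum was mostly fibronectin, Fn1. Among fibroblast genes at lower levels, the collagen gene Col1a1 was at 0.670 to 1.38 in KO1 and 1.41 to 2.33 in WT. Fbln2 (18.5 to 21.5 in KO1, 13.6 to 17.0 in WT) and Pdgfrb (17.6 to 18.9 and 14.1 to 15.1) went the other way. Of the 4 fibroblast markers tested, 3 were above 0 and none was called (median 0.19). In bulk RNA, fewer cells of a type and less RNA per cell cannot be told apart, here and in all that follows.

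Kif2a itself (ENSMUSG00000021693, chromosome 13, 106958996 to 107022126 on the minus strand of GRCm38) was at 0.886, 1.16 and 0.957 in KO1, against 109, 121 and 113 in WT. These values stand for 9, 11 and 10 reads in KO1 and for 1049, 1043 and 959 reads in WT. The KO1 mean was 0.875% of the WT mean, and the groups did not overlap. The exact two-sided permutation test gave p = 0.1, the smallest that the 20 assignments of 3 against 3 libraries allow.

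Across all genes, 109 were called in KO1 against WT, which is 1.06% of those tested. Of these, 85 were higher (0.83%) and 24 lower (0.234%), and 11 higher and 2 lower ones changed by at least 1.5-fold. In all 109 the values of KO1 and WT did not overlap. The calls rest on these same values, so this is a description and no further evidence. KO1 and WT did not overlap in 18.2% of all genes tested. On data simulated for KO1 against WT, over 10238 genes, the fit called 58% of changes of 1.25-fold, 90% of 1.5-fold and 100% of 2-fold. It also called 0.189% of 10038 unchanged genes. The simulated counts were drawn independently, with spreads estimated from these same libraries and KO2 set equal to WT. The shares therefore need not hold for the real libraries. The median change of all genes was 0.02 and fell to about 0 (−0.0021 to −0.00036) under the other scalings and count tests. The split between directions moved with this: quantile normalization gave 64 higher and 38 lower, median-ratio scaling 62 and 42, edgeR with TMM factors 69 and 48, edgeR with RLE factors 70 and 47, and DESeq2 64 and 43. The count depended on single libraries, with 50 calls without KO1 replicate 2, 54 without KO1 replicate 1, 65 without WT replicate 3 and 166 without KO2 replicate 3.

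Set against the other knockout line, KO1 differed in 1016 genes (9.92%), 534 higher (5.22%) and 482 lower (4.71%). Of the 109 genes called against WT, 26 were KO1-specific (0.254% of genes tested), 24 higher (0.234%) and 2 lower (0.0195%). A further 73 had no call between the lines, which does not show that the lines were alike in them. Of these 73, 58 were also called in KO2 against WT, with the same sign. In the remaining 10 of the 109 the KO1 mean lay between those of KO2 and WT. They were, named after their values were seen, Padi2, Dhcr7, Dsp, Slc2a3 and Dppa5a, which were higher in KO1 than in WT and lower than in KO2, and Trp53, Mllt6, Fsd1l, Vim and Gpx1, the other way round. Their log2 changes in KO1 against WT ran between −0.37 (Fsd1l) and 0.61 (Padi2). In the 26 KO1-specific genes the KO1 libraries lay outside the range of all 6 other libraries. The genes were chosen by these libraries, so this is a description.

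**Figure D1:**
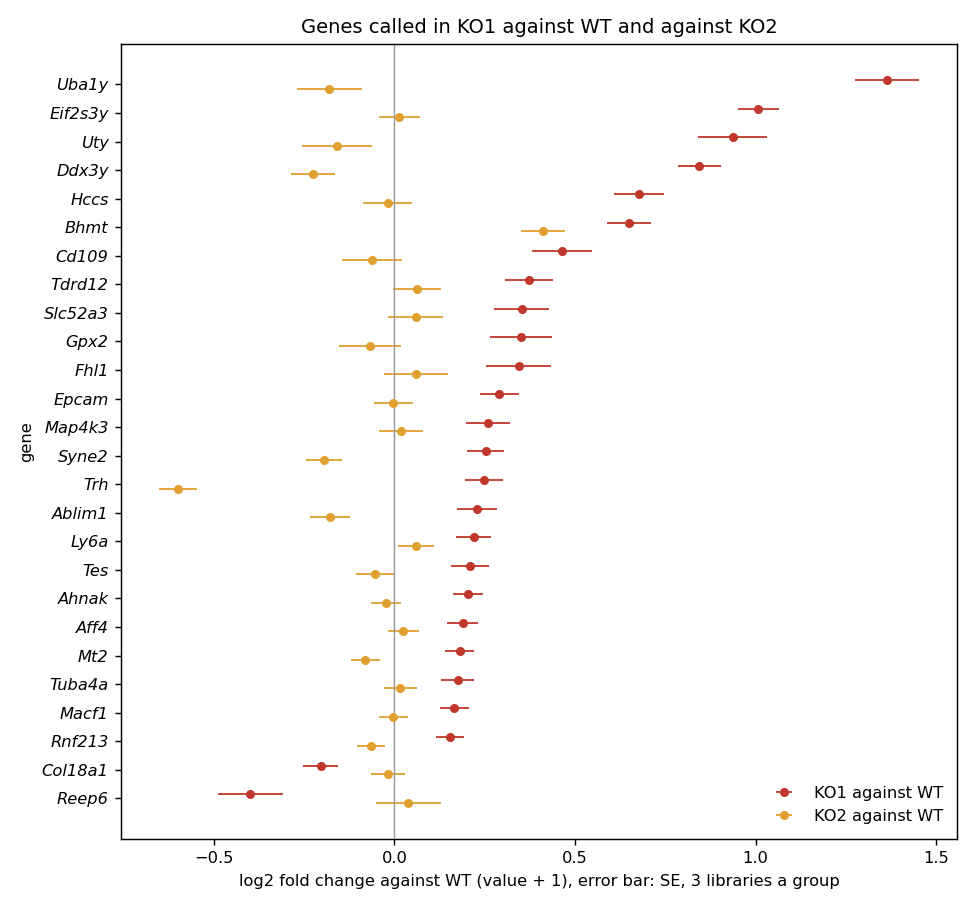
Log2 fold change against WT (horizontal axis, value plus 1) of the 26 KO1-specific genes, for KO1 (red) and KO2 (yellow), with SE bars and 3 libraries a group. KO1 ran from −0.40 (Reep6) to 1.36 (Uba1y), while KO2 stayed between −0.60 (Trh) and 0.41 (Bhmt); the genes were chosen by these libraries, so the gap between the points is a description.

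The 4 genes that rose most in KO1 lie on the Y chromosome. Several genes on the mouse Y have a partner on the X that codes for nearly the same protein, and reads are assigned to one or the other by the bases in which the copies differ. The first 60 coding bases of the pairs below, from GENCODE M21 transcripts (GRCm38), show how often that happens; capitals mark the bases that differ within a pair. Ddx3y encodes an RNA helicase that unwinds structured RNA for translation (chromosome Y, 1260771 to 1286629, minus strand), and Ddx3x its partner (chromosome X, 13280970 to 13294052, plus strand), with 11 differences in this window:
Ddx3y: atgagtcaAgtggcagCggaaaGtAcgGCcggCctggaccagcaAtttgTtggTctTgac
Ddx3x: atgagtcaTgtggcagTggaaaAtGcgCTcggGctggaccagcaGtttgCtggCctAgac
Eif2s3y encodes a subunit of eIF2, the factor that brings the initiator tRNA to the ribosome (chromosome Y, 1010543 to 1028847, plus strand), and Eif2s3x its partner (chromosome X, 94188707 to 94212862, minus strand), with 13 differences:
Eif2s3y: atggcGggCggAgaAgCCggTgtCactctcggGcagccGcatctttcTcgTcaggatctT
Eif2s3x: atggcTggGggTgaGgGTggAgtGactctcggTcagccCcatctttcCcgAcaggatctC
Over the aligned coding sequence the pairs were 84.6% (Ddx3y) and 86.3% (Eif2s3y) identical, and Uba1y with Uba1 and Uty with Kdm6a were 80.5% and 82.9% identical. Stretches of 50 coding bases, the read length, that the Y copy shared exactly with its partner's transcripts numbered 0 of 1925 in Ddx3y, 0 of 1367 in Eif2s3y, 0 of 3125 in Uba1y and 12 of 3587 in Uty.

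Uba1y, a Y-linked copy of the enzyme that activates ubiquitin, was at 84.7, 73.2 and 82.5 in KO1, against 25.2, 28.6 and 26.6 in KO2 and 31.4, 29.3 and 30.7 in WT. Its change was 1.36 ± 0.09 in KO1 against WT (limma adjusted p = 1.1e-17) and 1.54 ± 0.09 against KO2 (3.0e-20). The lowest KO1 library stood above 2 times the highest library of either other group. Eif2s3y was at 280.1, 271 and 247 in KO1, 123, 133 and 144 in KO2, and 129.5, 132 and 134 in WT (1.01 ± 0.06 against WT, limma adjusted p = 3.0e-20, and 0.99 ± 0.06 against KO2). Uty, which encodes a relative of the H3K27 demethylase Kdm6a, was at 64.1, 60.8 and 60.5 in KO1, 28.2, 26.1 and 31.0 in KO2, and 30.2, 37.9 and 28.0 in WT (0.94 ± 0.10, limma adjusted p = 3.1e-10, and 1.09 ± 0.10). Ddx3y was at 229, 212 and 219 in KO1, 94.9, 108 and 111 in KO2, and 117, 129 and 121 in WT (0.84 ± 0.06, limma adjusted p = 3.1e-16, and 1.07 ± 0.06). In all 4 genes KO1 lay above KO2 and WT without overlap, while KO2 and WT overlapped or lay close together; only Ddx3y was called lower in KO2 than in WT (−0.23, adjusted p = 0.0055). The 4 calls held under every setting tried.

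Of the other genes placed on the Y, Gm47283, at 90784738 to 90816464 near its far end, was at 21.7, 18.4 and 25.6 in KO1 and 21.1, 14.7 and 22.2 in WT. It had no call (0.18 ± 0.13, limma adjusted p = 0.64). Unlike the 4 genes above, Gm47283 was not compared with sequences of the X, so whether its reads came from the Y was not tested. Zfy1, a zinc-finger transcription factor gene, was below the limit of the fit, at 12.2, 14.2 and 10.3 in KO1, 4.61, 4.26 and 4.42 in KO2, and 5.18, 7.44 and 7.16 in WT. Fitted without the limit, its change was 0.81 ± 0.18 (limma adjusted p = 0.010). Kdm5d, an H3K4 demethylase gene, averaged 2.25 ± 0.553 in KO1 and 1.72 ± 0.157 in WT, and Usp9y, a deubiquitinase gene, 0.964 ± 0.0825 in KO1 and 0.367 ± 0.218 in WT (SD, n = 3 each). Neither had a call without the limit (adjusted p = 0.79 and 0.46). Gm29650, also below the limit, averaged 0.808 ± 0.392 in KO1 and 0.986 ± 0.335 in WT, with no call (−0.14, adjusted p = 0.91).

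**Figure D2:**
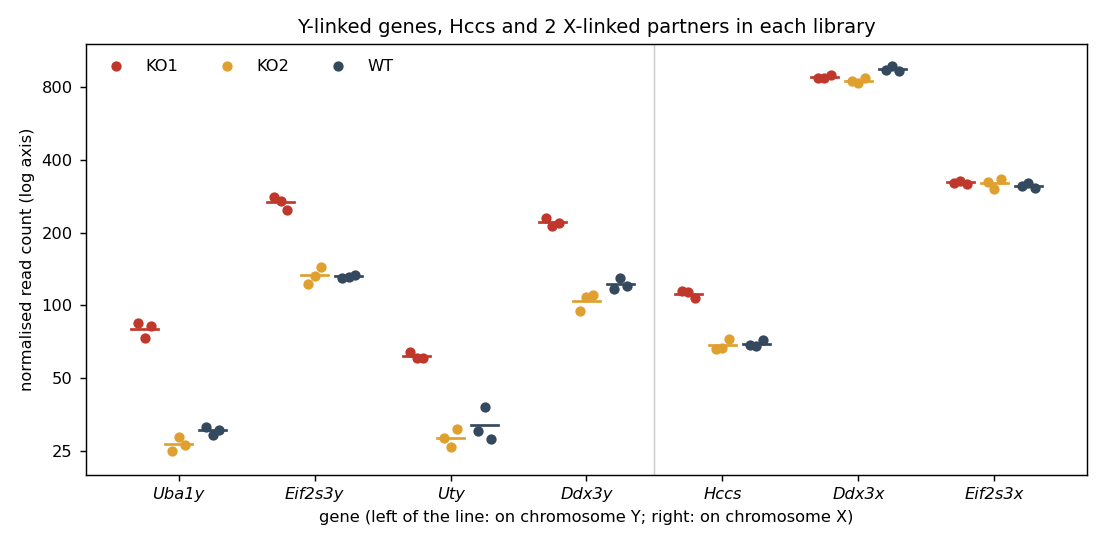
Normalised read count (log axis) of 4 Y-linked genes, Hccs and 2 X-linked partners in each library (points) of KO1, KO2 and WT, with the group mean as a line. KO1 stood above both other groups in the Y-linked genes and Hccs, for example at 247 to 280.1 against 123 to 144 (KO2) and 129.5 to 134 (WT) for Eif2s3y, while the X-linked Eif2s3x ranged from 303 to 333 over all 9 libraries.

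None of the 7 X-linked partners tested was called, and their median change was 0.02, beside 0.02 for all genes. Eif2s3x was at 322, 327 and 318 in KO1 and 311, 319 and 307 in WT (0.05 ± 0.05, limma adjusted p = 0.75). Ddx3x was at 866, 871 and 897 in KO1 and 941, 977 and 927 in WT, without overlap (−0.11 ± 0.04, limma adjusted p = 0.16). It was called lower under median-ratio scaling (−0.13, adjusted p = 0.049), edgeR with TMM (−0.14, 0.045) or RLE factors (−0.13, 0.047), and DESeq2 (−0.13, 0.027). In KO2, Ddx3x was at 841, 827 and 865 and was called lower than in WT (−0.17, limma adjusted p = 0.0012). Ddx3y was called lower there as well (−0.23, limma adjusted p = 0.0055), and a link between the 2 genes was not tested.

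Among the genes with a mean of at least 30, the next largest rise was that of Hccs on the X chromosome (ENSMUSG00000031352, 169250193 to 169320372, minus strand), which encodes the enzyme that attaches heme to cytochrome c in mitochondria. It was at 114, 114 and 107 in KO1, 66.3, 66.8 and 72.6 in KO2, and 68.7, 67.9 and 71.7 in WT. KO1 lay apart from both other groups, which overlapped each other. The change was 0.68 ± 0.07 against WT (limma adjusted p = 1.4e-10) and 0.70 ± 0.07 against KO2 (4.0e-11), in every setting past the threshold. None of the 11 tested genes within 5 Mb of Hccs was called, with changes of −0.27 to 0.28. All 11 lie at lower coordinates than Hccs, from Pir (164269371) to Msl3 (168673898), and no gene on its other side was tested. On the X as a whole, 3 of 310 genes were called higher and 1 lower, and the median was 0.03.

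A pair of adjacent homocysteine methyltransferase genes on chromosome 13 rose as well. Bhmt (93616675 to 93637961, minus strand), which remakes methionine from homocysteine with betaine, was at 135, 131 and 138 in KO1, 112, 112 and 118 in KO2, and 89.6, 82.5 and 84.5 in WT. The 3 groups did not overlap, and the gene was called against both WT (0.65 ± 0.06, limma adjusted p = 1.9e-11) and KO2 (0.24 ± 0.06, 0.0076). KO2 was itself called higher than WT (0.41, 1.6e-06). Its paralog Bhmt2 (93655720 to 93674302) was at 70.8, 81.2 and 65.7 in KO1, 67.7, 78.5 and 65.4 in KO2, and 59.4, 48.7 and 53.3 in WT. It was called against WT (0.42 ± 0.08, adjusted p = 0.0011; 0.34 and 0.077 without KO1 replicate 2) but not against KO2 (0.04 ± 0.08). The next gene, Dmgdh (93674433 to 93752833), whose enzyme breaks down the dimethylglycine that Bhmt makes, rose by 0.26 ± 0.05 (adjusted p = 8.4e-04, 0.03 against KO2). It was named after its value was seen. In KO2 against WT, Bhmt2 (0.38) and Dmgdh (0.23) were called higher as well.

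The other KO1-specific genes are given by what they encode, an order chosen after their values were seen. Cd109, a surface protein that binds TGF-beta, was at 78.1, 74.8 and 75.9 in KO1, 55.0, 45.0 and 59.0 in KO2, and 56.7, 59.4 and 49.3 in WT (0.46 ± 0.08, limma adjusted p = 3.8e-04). Epcam, an epithelial adhesion molecule that ES cells also make, was at 192, 186 and 180.1 in KO1, 151, 144 and 161 in KO2, and 152, 152 and 151 in WT (0.29 ± 0.05, adjusted p = 8.4e-04). In both genes KO1 stood above the 6 other libraries, among which KO2 and WT overlapped. Ly6a, the surface antigen Sca-1, changed by 0.22 ± 0.05 (adjusted p = 0.0092). Its call was lost without KO1 replicate 1 (0.20), KO1 replicate 2 (0.22) or WT replicate 1 (0.21). The call against KO2 (0.16 ± 0.05, adjusted p = 0.027) was lost without any 1 of the KO1 replicates, KO2 replicate 1 or KO2 replicate 2 (0.14 to 0.17).

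Syne2, which encodes nesprin-2, a giant protein that links the nuclear envelope to actin, was at 228, 231 and 238 in KO1, 167, 172 and 172 in KO2, and 194, 190.2 and 201 in WT. It was called higher in KO1 than in WT (0.25 ± 0.05, limma adjusted p = 0.0021) and than in KO2 (0.45 ± 0.05, 4.0e-09), and lower in KO2 than in WT (−0.19, 0.0043). The actin-binding LIM protein gene Ablim1 followed the same order, at 215, 217 and 205 in KO1, 154, 167 and 159.5 in KO2, and 197, 169 and 178 in WT (0.23 ± 0.06 against WT, adjusted p = 0.017). Its call against WT was lost without KO1 replicate 1 (0.22), KO1 replicate 2 (0.21), WT replicate 2 (0.18) or WT replicate 3 (0.22). Smaller rises against WT were those of Ahnak (0.20 ± 0.04), a giant scaffold protein under the plasma membrane, Macf1 (0.17 ± 0.04), which cross-links actin and microtubules, Tes (0.21 ± 0.05), a LIM protein of focal adhesions, and Tuba4a (0.18 ± 0.04), an alpha-tubulin. The Ahnak call was lost without KO1 replicate 2 (0.18), and that of Macf1 without KO1 replicate 2 (0.15), KO1 replicate 3 (0.14) or WT replicate 1 (0.14). Tes (0.17 to 0.23) and Tuba4a (0.15 to 0.19) lost their calls without any 1 of the KO1 replicates, WT replicate 2 or WT replicate 3, and Tuba4a lost it under all 5 other scalings and count tests (0.15 to 0.16). Under quantile normalization, median-ratio scaling and edgeR with TMM factors Tes was not called either (0.19 each), and under DESeq2 Macf1 was not (0.14). Against KO2, the Tuba4a call (0.16) was lost without KO1 replicate 3 (0.13) or KO2 replicate 3 (0.11).

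Trh, the precursor of thyrotropin-releasing hormone, was at 236, 249 and 270.2 in KO1, 139, 143 and 137 in KO2, and 206, 211 and 218 in WT. The 3 groups did not overlap. The difference between the lines (0.85 ± 0.05, limma adjusted p = 8.0e-19) was made up of a rise in KO1 (0.25 ± 0.05, 0.0054) and a fall in KO2 (−0.60, 7.3e-13), each against the same WT libraries. Without KO1 replicate 3, the highest, the KO1 rise was 0.20 and lost its call (adjusted p = 0.11).

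Mt2, a metallothionein that binds zinc and copper, was at 555, 550.0 and 564 in KO1, 471, 472 and 449.9 in KO2, and 492, 494 and 485 in WT (0.18 ± 0.04, limma adjusted p = 0.0091). The groups did not overlap, but the change is 1.13-fold, and its call was lost without KO1 replicate 1 (0.18), KO1 replicate 3 (0.17) or WT replicate 3 (0.17). Tdrd12, a Tudor protein of the germline piRNA pathway, rose by 0.37 ± 0.07 (adjusted p = 3.7e-04) and kept its call under every setting. The other higher KO1-specific genes were Gpx2, a glutathione peroxidase (0.35 ± 0.09), Slc52a3, a riboflavin transporter (0.35 ± 0.08), Fhl1, a LIM-domain protein gene (0.34 ± 0.09), Map4k3, a protein kinase gene (0.26 ± 0.06), Aff4, of the super elongation complex (0.19 ± 0.04), and Rnf213, a giant ubiquitin ligase (0.15 ± 0.04). Their adjusted p against WT ran from 0.0060 to 0.036. The call of Slc52a3 was lost without WT replicate 2 (0.31), and that of Aff4 without KO1 replicate 2 (0.19), KO1 replicate 3 (0.17) or WT replicate 3 (0.16). Map4k3 lost its call without KO1 replicates 1 or 2 or WT replicates 1 or 3 (0.24 each time), Gpx2 without any 1 of the KO1 replicates, WT replicate 2 or WT replicate 3 (0.31 to 0.36), and Rnf213 without any 1 of the KO1 replicates, WT replicate 1 or WT replicate 2 (0.13 to 0.17). Rnf213 also lost it under median-ratio scaling, edgeR and DESeq2 (0.13 each). Fhl1 lost it without KO1 replicates 1 or 2 or WT replicates 2 or 3 (0.26 to 0.36) and under all 5 other scalings and count tests (0.32). Against KO2, the Fhl1 call (0.28) was lost without KO1 replicate 1 (0.25), KO1 replicate 2 (0.27) or KO2 replicate 2 (0.23). That of Aff4 (0.16) was lost without KO1 replicate 3 (0.15).

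The lower KO1-specific genes were Reep6 and Col18a1. Reep6, which shapes endoplasmic reticulum membranes, was at 30.9, 33.2 and 38.1 in KO1, 43.4, 49.1 and 46.7 in KO2, and 45.8, 42.8 and 46.7 in WT (−0.40 ± 0.09 against WT, limma adjusted p = 0.0099, and −0.44 ± 0.09 against KO2). The call against WT was lost without KO1 replicate 1 (−0.33), KO1 replicate 2 (−0.38) or WT replicate 3 (−0.37). Col18a1, the collagen of basement membranes from which endostatin is cut, was at 308, 348 and 332 in KO1, 372, 399 and 354 in KO2, and 386, 360.3 and 392 in WT (−0.20 ± 0.05, adjusted p = 0.013). KO1 lay below the others in both genes, in Col18a1 by only a few counts. The Col18a1 call against WT was lost without KO1 replicate 1 (−0.16), WT replicate 1 (−0.19) or WT replicate 3 (−0.18). Under the 5 other scalings and count tests 6 or 7 genes were KO1-specific and lower.

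Of the 26 KO1-specific genes, 10 were KO1-specific in every setting tried: Bhmt, Cd109, Ddx3y, Eif2s3y, Epcam, Hccs, Syne2, Tdrd12, Uba1y and Uty. Among them, Bhmt was also called higher in KO2 than in WT (0.41), so its rise was larger in KO1 but not confined to it. Without KO1 replicate 1, 15 of the 26 remained, without KO1 replicate 2, 14, without KO1 replicate 3, 17, and without WT replicate 3, 16.

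Other genes named for their rise in KO1 were not KO1-specific. Padi2, which converts arginine to citrulline in histones and other proteins, was at 46.3, 39.5 and 43.0 in KO1, 66.3, 59.6 and 60.1 in KO2, and 31.2, 25.4 and 27.1 in WT. KO1 lay between the other groups, called higher than WT (0.61 ± 0.09, limma adjusted p = 1.1e-05) and lower than KO2 (−0.52 ± 0.09, 5.5e-05). Ap3b2, a subunit of the neuronal form of the AP-3 vesicle adaptor, averaged 70.3 ± 5.52 in KO1, 69.1 ± 0.779 in KO2 and 47.7 ± 5.46 in WT (SD, n = 3 each; 0.55 ± 0.08, adjusted p = 4.7e-06). Soat1, which esterifies cholesterol for storage, averaged 34.5 ± 2.23 in KO1, 37.7 ± 4.06 in KO2 and 24.7 ± 2.06 in WT (0.47 ± 0.10, adjusted p = 0.0058). Leaving out KO1 replicate 2 (0.42) or WT replicate 3 (0.43) ended its call. In Ap3b2 and Soat1 KO1 stood above WT without overlap and had no call against KO2. KO2 was itself called higher than WT in both (0.53 and 0.59).

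**Figure D3:**
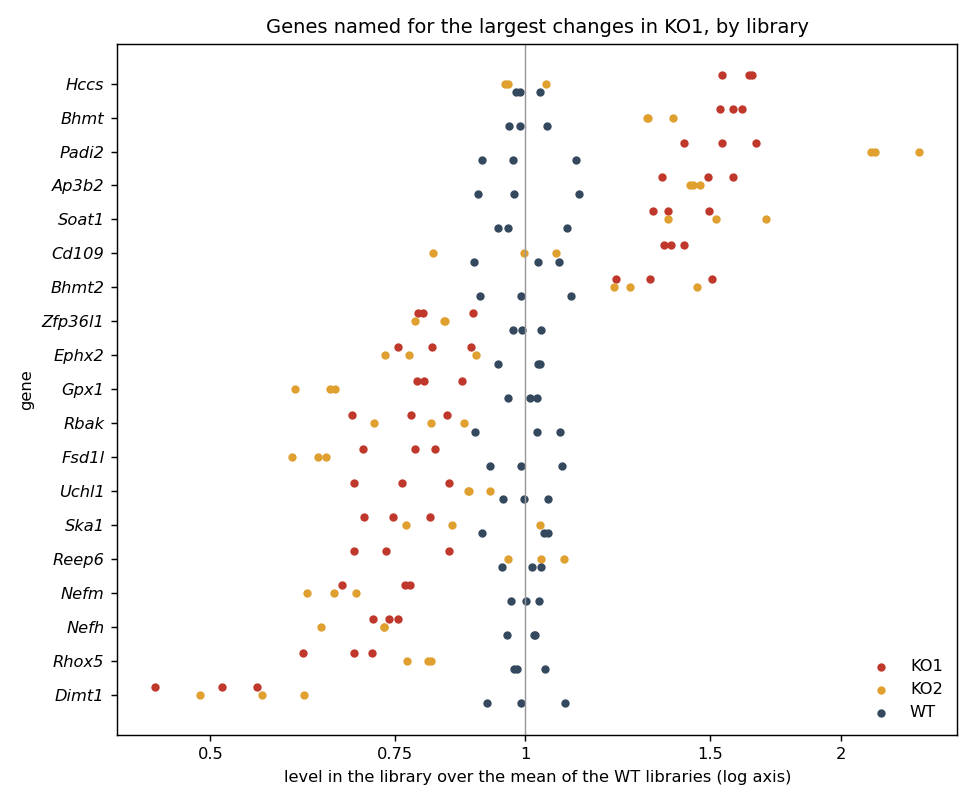
Level in each library over the mean of the WT libraries (horizontal log axis) for 7 genes off the Y named for their rise in KO1 and the 12 named for their fall, with KO1, KO2 and WT libraries as points. In each gene the KO1 points lie on one side of the WT points, which the naming rule required; KO2 points lie with WT in Hccs, Cd109 and Reep6 and beyond KO1 in Padi2, Gpx1 and Fsd1l.

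Besides Kif2a, the largest fall was that of its neighbour Dimt1 (chromosome 13, 106947127 to 106960224, plus strand), which encodes a methyltransferase of 18S ribosomal RNA. It was at 20.7, 23.9 and 25.8 in KO1, 22.8, 26.1 and 28.7 in KO2, and 42.9, 46.2 and 50.9 in WT. KO1 lay below WT without overlap (−0.96 ± 0.10, limma adjusted p = 1.6e-09) and was not called against KO2 (−0.13 ± 0.10). KO2 was itself called lower than WT (−0.83). The last exons of Dimt1 and Kif2a overlap tail to tail on opposite strands over 1229 bases, of 3851 exon bases in Dimt1 and 6393 in Kif2a. Whether reads were counted by strand is not given in the sources used here, so that reads of Kif2a and Dimt1 in this stretch cannot be told apart, and their part in the Dimt1 difference was not tested. Of the 24 tested genes within 5 Mb of Kif2a, Dimt1 was the only one called, and the other 23 changed by −0.16 to 0.13. Ipo11, a nuclear import receptor gene whose end lies within 500 kb, had no call (0.02 ± 0.05, limma adjusted p = 0.95), with 201, 237 and 247 in KO1 and 222, 226 and 226 in WT.

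Among the other genes named by the rule, the largest falls were those of a homeobox gene of the X and of neuronal filaments. Rhox5, an X-linked homeobox gene of germline and extraembryonic cells, was at 41.0, 35.3 and 39.4 in KO1, 46.7, 44.4 and 46.5 in KO2, and 56.4, 56.1 and 60.1 in WT (−0.57 ± 0.08, limma adjusted p = 9.4e-06). The neurofilament gene Nefh was at 44.6, 46.1 and 47.1 in KO1, 45.6, 45.7 and 39.8 in KO2, and 63.6, 59.9 and 63.5 in WT (−0.43 ± 0.08, adjusted p = 8.4e-04). Its partner Nefm averaged 32.2 ± 2.62 in KO1, 28.6 ± 1.55 in KO2 and 43.8 ± 1.35 in WT (−0.43 ± 0.09). None of the 3 was called between the lines, although in Rhox5 the KO1 libraries lay below those of KO2 (−0.24 ± 0.08, adjusted p = 0.0502). In KO2 against WT all 3 were called lower as well (Rhox5 −0.32, Nefh −0.51 and Nefm −0.60). The Nefm call was lost without KO1 replicate 1 (−0.36) or WT replicate 1 (−0.41).

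The antioxidant enzyme gene Gpx1 was at 361, 355 and 393 in KO1, 297, 293 and 272 in KO2, and 434, 463 and 456 in WT. KO1 lay between the other groups without overlap (−0.29 ± 0.05 against WT, limma adjusted p = 4.0e-05, and 0.36 ± 0.05 against KO2). Fsd1l averaged 43.8 ± 3.53 in KO1, 35.6 ± 1.40 in KO2 and 57.0 ± 4.55 in WT, in the same order (−0.37 ± 0.09, adjusted p = 0.013). Its call against WT was lost without KO1 replicate 1 (−0.31), WT replicate 2 (−0.31) or WT replicate 3 (−0.38).

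The last genes of the rule fell in KO1 by 0.27 to 0.40 with weaker calls. Ska1, of the complex that holds kinetochores to microtubules, averaged 31.0 ± 2.24 in KO1 and 41.1 ± 3.28 in WT (limma adjusted p = 0.025). Uchl1, a ubiquitin hydrolase abundant in neurons, averaged 34.2 ± 3.60 in KO1 and 44.8 ± 2.22 in WT (adjusted p = 0.015). Rbak, a zinc-finger repressor gene, averaged 31.8 ± 3.31 in KO1 and 41.4 ± 3.90 in WT (adjusted p = 0.040). For Ephx2, the soluble epoxide hydrolase, the values were 92.0 ± 7.44 in KO1 and 112 ± 5.72 in WT (adjusted p = 0.019). Zfp36l1, which promotes decay of AU-rich mRNAs, stood at 66.3 ± 4.55 in KO1 and 80.3 ± 2.56 in WT (adjusted p = 0.038). KO1 lay below WT in each, and none was called between the lines. Rbak (−0.31), Ephx2 (−0.32) and Zfp36l1 (−0.28) were also called lower in KO2 than in WT, while Ska1 and Uchl1 were not. The call of Ska1 was lost without KO1 replicate 1 (−0.35), KO1 replicate 3 (−0.39), WT replicate 1 (−0.36) or WT replicate 3 (−0.37), and that of Uchl1 without KO1 replicate 1 (−0.31), KO1 replicate 2 (−0.38), WT replicate 2 (−0.35) or WT replicate 3 (−0.38). Rbak lost it without KO1 replicate 1 (−0.38), KO1 replicate 2 (−0.29), WT replicate 1 (−0.35) or WT replicate 2 (−0.32), Ephx2 without KO1 replicate 2 (−0.23), KO1 replicate 3 (−0.28), WT replicate 1 (−0.26) or WT replicate 3 (−0.27), and Zfp36l1 without any 1 of KO1 replicates 1 and 2 and the WT replicates (−0.24 to −0.29).

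Of 37 gene lists by pathway, complex or family, 8 held a called gene in KO1 against WT and 29 held none. They had 887 tested genes, of which 12 were called (1.35%), and without the 4 Y-linked genes 8 of 883 (0.906%), near the 1.06% of all genes. The list medians other than that of the Y-linked genes ran from −0.06 to 0.08, beside 0.02 for all genes. These counts are with the authors' scaling. Under the other scalings and count tests 10 or 11 lists held a called gene, and 5 did without KO1 replicate 1 or KO1 replicate 2.

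Among cytoskeletal lists, actin, myosin and Arp2/3 genes had 1 of 40 called higher and 0 lower, with 20 above 0. The called gene was Tagln2, an actin-binding transgelin, at 249, 241 and 230.5 in KO1 and 212, 196 and 216 in WT (0.21 ± 0.05, limma adjusted p = 0.018). Its call was lost without KO1 replicate 1 (0.18), KO1 replicate 2 (0.20) or WT replicate 2 (0.16). Tagln2 was also called higher in KO2 than in WT (0.31). Keratins and nuclear lamins had 1 of 12 higher, the envelope protein gene Syne2 given above (median 0.03). Dynein and dynactin, the motor that carries cargo to microtubule minus ends, had 0 of 27 called (median 0.02, members from −0.20 for Bicd1 to 0.19 for Actr10).

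Among chromatin lists, histone genes had 1 of 9 higher and 1 lower. Macroh2a1, the variant enriched on the inactive X and other silent chromatin, was at 445, 463 and 477 in KO1 and 398, 409 and 417 in WT (0.18 ± 0.04, limma adjusted p = 0.017). H2ax, the variant phosphorylated at DNA breaks, was at 505, 527 and 583 in KO1 and 616, 618 and 609.9 in WT (−0.19 ± 0.04, adjusted p = 0.0092). In both, KO1 and WT did not overlap, and neither gene was called between the lines. Macroh2a1 was also called higher in KO2 than in WT (0.19), while H2ax had no call there (−0.09). The H2ax call was lost without KO1 replicate 1 (−0.15) or KO1 replicate 2 (−0.18), and the Macroh2a1 call without KO1 replicate 2 (0.17), KO1 replicate 3 (0.15) or WT replicate 1 (0.16) and under median-ratio scaling (0.15). No gene was called among 29 of the polycomb complexes, 22 COMPASS methyltransferases and lysine demethylases, 37 of the BAF, NuRD and INO80 remodellers, 21 of cohesin, condensin and CTCF, or 45 of DNA repair, with medians of −0.0047 to 0.04.

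Lists of RNA and protein handling held few calls. SR proteins and hnRNPs, which bind pre-mRNA in splicing, had the lowest median (−0.06, 0 of 32 called). Of these, 3 of 32 were above 0, against 60.2% of all genes under the authors' scaling. The median of all genes was 0.02 there and −0.0021 to −0.00036 under the other scalings and count tests. snoRNA host genes had 3 of 14 above 0 and amino acid transporters 9 of 21, with medians of −0.04 and −0.05 and no call. Translation factors (40 genes), aminoacyl-tRNA synthetases (22), proteasome subunits (37) and RNA exosome and decay genes (26) had no call and medians of −0.0043 to 0.0060. Nuclear pore and transport genes had no call among 49, with 37 above 0 (median 0.03); against KO2 6 of them were higher and 0 lower, beside 5.22% and 4.71% of all genes. Heat shock chaperones had 1 of 26 lower, Hspb1, a small heat shock protein, at 525, 523 and 572 in KO1 and 635, 579 and 617 in WT (−0.18 ± 0.04, limma adjusted p = 0.027). That call was lost without KO1 replicate 1 (−0.16), KO1 replicate 2 (−0.15), WT replicate 1 (−0.15) or WT replicate 3 (−0.17). Hspb1 was also called lower in KO2 than in WT (−0.14).

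Of the metabolic lists, purine and pyrimidine synthesis had 1 of 25 called, Ak4, a mitochondrial adenylate kinase, at 984, 998 and 986 in KO1, 939, 922 and 959.9 in KO2, and 872, 834 and 849 in WT. KO1 lay above WT by more than the spread of either group (0.22 ± 0.04, limma adjusted p = 2.4e-04), and no omission of a library ended the call. KO2 was itself called higher than WT in Ak4 (0.14). Metal handling had 1 of 24 higher, Mt2, described above. NRF2 targets and glutathione synthesis (26 genes), peroxisome (28), autophagy (30) and mitochondrial import, dynamics and proteases (34) had none, with medians of −0.0036 to 0.04.

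Of the signalling lists, Eph receptors, ephrins, semaphorins and plexins had 1 of 23 called, the receptor tyrosine kinase gene Ephb4, at 174, 187 and 199 in KO1 and 159, 152 and 151 in WT (0.27 ± 0.06, limma adjusted p = 0.0044). The groups did not overlap, and the call was lost without KO1 replicate 3 (0.22). Ephb4 was also called higher in KO2 than in WT (0.17). Notch genes had the highest median of the lists off the Y (0.08) with 0 of 21 called and 14 above 0. Hedgehog (12 genes), retinoic acid (8), LIF, JAK and STAT3 (16), interferon-stimulated (17), antigen presentation (7), cell death (24), circadian clock (13) and glycan synthesis genes (32) had no call, with medians of 0.00068 to 0.06.

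**Figure D4:**
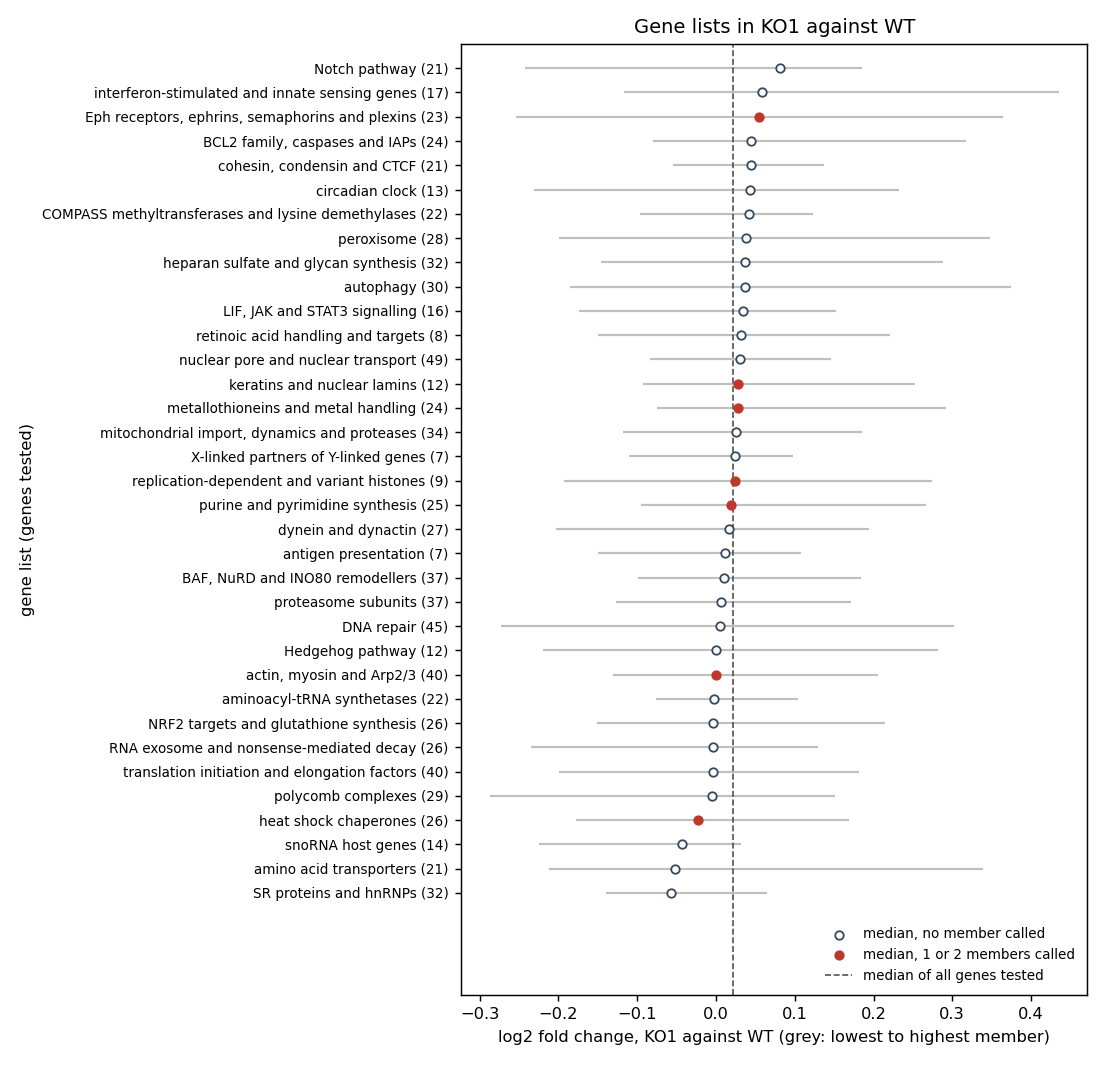
Median log2 fold change in KO1 against WT (points) of 35 gene lists, with the lowest and highest member (grey lines), the number of tested genes in brackets and the median of all genes as a dashed line at 0.02; red points mark lists with a called member. The medians ran from −0.06 (SR proteins and hnRNPs) to 0.08 (Notch pathway), and the members of most lists spread to both sides of 0; the Y-linked genes, with a median of 0.97, are left out.

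Along the genome, chromosome 6 stood highest of the autosomes. Its 469 tested genes had a median change of 0.06, against 0.0063 to 0.03 on the 18 other autosomes, and 10 of them were called higher and 0 lower (2.13%, beside 1.06% of all genes). The difference from the median of all genes was 0.036 and ranged from 0.033 to 0.043 when 1 library was left out, and all 25-Mb stretches of the chromosome had medians of 0.05 to 0.07. By library, the chromosome 6 median stood 0.037, 0.043 and 0.037 above that of all genes in KO1, 0.022, 0.0065 and 0.033 in KO2, and −0.00025 to 0.0049 in WT, on the log2 scale relative to the WT mean. All KO1 libraries were above all others, with KO2 replicate 3 the nearest. The called genes of chromosome 6 were, in order along it and named after their values were seen, Peg10, Tes, Exoc4, Aldh1l1, Trh, Itpr1, Dppa3, Slc2a3, Lrp6 and Ldhb. Only Tes and Trh were KO1-specific. Peg10 (0.21), Aldh1l1 (0.36), Itpr1 (0.45), Dppa3 (0.31), Slc2a3 (0.41), Lrp6 (0.20) and Ldhb (0.23) were also called higher in KO2 than in WT. Leaving out single libraries ended the calls of Trh (KO1 replicate 3, 0.20), of Tes in 5 omissions, of Lrp6 in 5 (KO1 replicates 2 and 3 and each WT replicate, 0.19 to 0.24) and of Exoc4 in 6 (each KO1 and WT replicate, 0.16 to 0.18). Exoc4 was not called under any of the 5 other scalings and count tests either (0.14 to 0.15), nor Tes under 3 of them (0.19). On chromosome 13, which carries Kif2a, 5 of 345 genes were higher and 2 lower (2.03%), with a median of 0.02. Chromosome 1 had 9 of 557 higher and 0 lower (1.62%), with a median of 0.03.

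**Figure D5:**
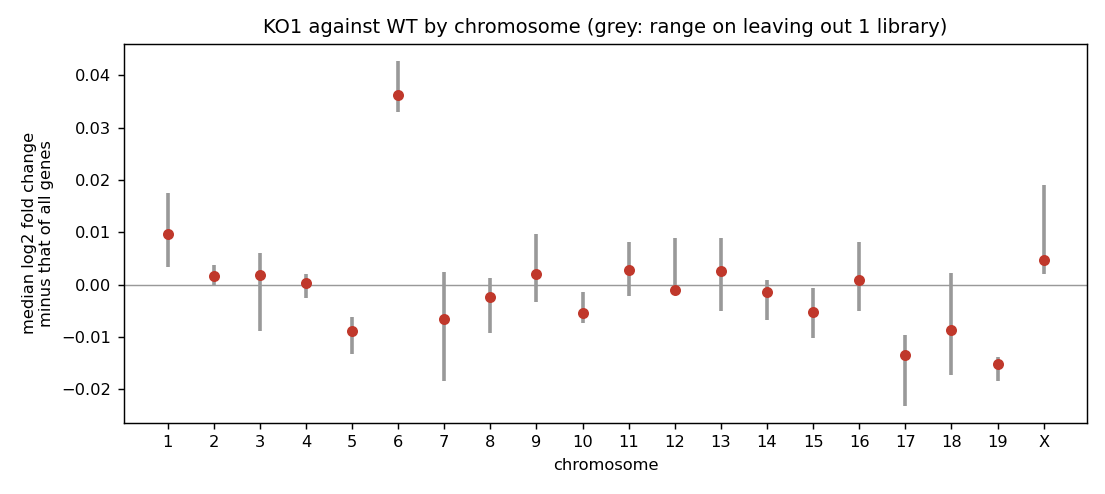
Median log2 fold change in KO1 against WT minus that of all genes (vertical axis) for the autosomes and the X, with the range over the omission of each of the 9 libraries in grey. Chromosome 6 lies at 0.036 (0.033 to 0.043) and the other chromosomes between −0.015 and 0.0097.

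Transcript length moved weakly with the changes. Called higher genes had a median annotated transcript length of 4049.5 bases (84 genes with a length), called lower genes 2926 bases (23) and all genes 3476 bases (10125). Over 8 parts of the genes by length the median change ran from 0.0014 in the shortest (216 to 1617 bases) to 0.05 in the longest (6455 to 123179 bases), and the part of this in the changes of long genes such as Syne2, Macf1, Ahnak and Rnf213 was not tested.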

How the data were processed

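Poly-A RNA of 9 libraries was measured. Per the labels, RNA taken up in Trizol was made into stranded mRNA libraries and read as paired ends of 50 bases. The submitters' processing notes name HISAT2, DESeq2 and GRCm38; their versions, the annotation and the strand setting are unstated there. What was deposited is a normalized signal for each gene, reads that the authors had scaled by 1 factor per library. In each library 100% of values were whole multiples of 1 step within 0.05 reads, and the reads recovered from them gave the depths and the input of edgeR 4.0.16 and DESeq2 1.42.0.

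limma 3.58.1 (R 4.3.3), with variance trend and robust moderation, was fitted to log2 of the value plus 1, with a mean per group over 9 libraries. GENCODE M21 placed 99.3% of genes. The members, lists and rules were chosen with earlier results of these data known. Named were Kif2a, the 12 highest and 12 lowest called genes with a mean of at least 30 whose KO1 and WT libraries did not overlap, up to 10 KO1-specific genes a direction by adjusted p against KO2, up to 4 called genes a list, genes within 500 kb of Kif2a, and 7 fixed genes (Pou5f1, Nanog, Sox2, Ddx3x, Eif2s3x, Kdm5d, Uty); predicted genes were passed over, and 1 gene and 1 list are not reported here. Other names followed their values. No libraries of a group were duplicates (chi-square per gene 2.27 to 4.38). The fit was tested on simulated data. Alternatives were other scalings, pseudocounts, filters and tools, only the compared groups, a replicate block and leaving out each library.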

Additional observations from a re-analysis of the deposited data

Results flagged for a closer look

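The difference between the knockout lines, tested as KO1 against KO2 in the same limma fit, passed the threshold for 1016 genes, and for 18 of the genes named by rule. In the Y-linked genes it was 1.54 for Uba1y, 0.99 for Eif2s3y, 1.09 for Uty and 1.07 for Ddx3y, on the log2 scale, and in the X-linked Hccs it was 0.70. KO1 was also higher than KO2 in Trh (0.85), Cd109 (0.53), Syne2 (0.45), Ablim1 (0.41), Gpx1 (0.36), Fsd1l (0.29), Mt2 (0.26), Bhmt (0.24) and Ipo11 (0.18). It was lower in Padi2 (−0.52), Reep6 (−0.44), Sox2 (−0.26) and Col18a1 (−0.19). Some of these differences depended on single libraries. The Fsd1l difference lost its call without KO1 replicate 2 (0.24), without KO1 replicate 3 (0.27) and without KO2 replicate 2 (0.26). That of Col18a1 lost it without KO1 replicate 1 (−0.14) or KO2 replicate 2 (−0.14). For Ipo11, leaving out KO1 replicate 2 gave 0.15, KO1 replicate 3 gave 0.12 and KO2 replicate 2 gave 0.16, none of them called. The Sox2 difference was not called in 5 of the 9 omissions, those of KO1 replicate 1 (−0.22), KO1 replicate 2 (−0.22), KO2 replicate 2 (−0.23), KO2 replicate 3 (−0.24) and WT replicate 2 (−0.26), nor under median-ratio scaling, edgeR, DESeq2 or the replicate block (−0.26 each). Neither Ipo11 nor Sox2 was called in KO1 against WT.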

How the results depend on the processing

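Of 1080 values of named genes under other settings, 997 kept direction and side of the threshold, 65 lost the call, 4 gained one (Ddx3x) and 14 turned sign. The last were near 0: Ipo11 at −0.0046 (quantile), −0.0081 (median-ratio), −0.0027 (edgeR TMM), −0.0012 (edgeR RLE) and −0.0013 (DESeq2), and below 0 without KO1 replicates 2 or 3 (range over all omissions −0.0438 to 0.104), and Nanog at −0.019 (median-ratio), −0.019 (edgeR TMM), −0.018 (edgeR RLE), −0.018 (DESeq2) and below 0 without KO1 replicate 3, WT replicate 2 or WT replicate 3 (−0.0148 to 0.0224 over all omissions). Of 740 list medians 30 moved by more than the allowed spread. The 24 lower calls became 38 (quantile), 42 (median-ratio), 48 and 47 (edgeR TMM and RLE) and 43 (DESeq2), and the 2 lower KO1-specific genes 7, 7, 7, 7 and 6; the median change of all genes moved with these scalings. With only KO1 and WT in the fit, 149 genes were called.

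Leaving out 1 library gave 50 to 166 calls in KO1 against WT (38 to 126 higher, 7 to 40 lower), 521 to 1207 in KO1 against KO2 (521 without KO1 replicate 2, 618 without KO1 replicate 3), 14 to 31 KO1-specific genes (13 to 26 higher, 1 to 10 lower), and 5 to 10 lists with a call. The chromosome 6 difference ranged from 0.033 to 0.043. The replicate block gave 89 calls in KO1 against WT, 74 higher and 15 lower, 867 against KO2 and 25 KO1-specific genes; same-numbered KO1 and WT libraries did not deviate together (r of 0.027, 0.011 and −0.0041), so the numbers were not taken as pairs. Kdm5d and Usp9y, at values below 3, had no call between KO1 and WT, which at this depth does not show that they were alike. Usp9y was at 0.886, 1.05 and 0.957 in KO1 and 0.518, 0.465 and 0.117 in WT, without overlap, while the Kdm5d values overlapped.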
